A study of Mus with 2 samples.

Results

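The cells described here are those of the cluster that the authors labelled PT, for proximal tubule, in a droplet single-cell RNA sequencing study of the mouse kidney. The rows were chosen by that label, keeping genes whose mean reached 0.1 in the young or the senescent library, which gave 5037 of the 8191 distinct genes in the authors' deposited table. Whole-kidney suspensions of C57BL/6 mice were compared between a young group and a senescent group, with 1 library per group, and cell numbers of 10895 (young) and 4408 (senescent) are stated for the series. Both libraries were made from kidney digested with enzymes, and the labels name no genotype or drug treatment for either group. The ages, sex and number of the mice, the hour of collection, the number of cells per cluster and the sequencing depth are absent from the sources used here.

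The proximal tubule is the first stretch of the nephron after the glomerular filter. Its cells carry a dense apical brush border, take back most of the filtered sodium, glucose, amino acids, phosphate and protein, and secrete organic anions and cations. They draw their energy mainly from fatty acid oxidation in abundant mitochondria, make glucose and ammonia, and are divided along the tubule into the segments S1, S2 and S3.

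Each value below is the authors' mean of scaled expression per cell over the PT cells of 1 library, given for the young and then the senescent library. With 1 library per group there is no spread between mice and no test between the groups was possible, so no value has an SD, and every comparison describes these 2 libraries. Age, library and any other difference between the animals cannot be told apart. A cluster mean also cannot tell a larger share of cells with an RNA from a higher level in each cell. Means are compared within a gene across the libraries and not between genes. The table holds only genes with a p-value below 0.05 and a log2 fold change of at least 0.36 in size, so a gene that is not listed cannot be called unchanged. The direction of every ratio rests on the labels' descriptions of the groups, because the name of the contrast in the table sets C57 against WT with an unexplained number and says of neither that it is senescent.

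Of the 5037 PT genes, 3948 (78.4%) had a higher mean in the senescent library and 1089 a lower one. The median log2 ratio of senescent over young was 1.22, or 2.34-fold. A ratio of at least 2 is used below as the mark of a gene called higher or lower. By that mark 2881 genes were higher, 57.2% of all, and 282 were lower, 5.6% of all. After the log2 ratios were centred on their median, which shifts every gene by 1.22, the split was 822 higher against 1089 lower. Scaling by the sum of the listed means shifted the log2 ratios by -0.03, and by 0.12 when Kap was left out of the sum. The sums themselves were 7329 (young) and 7184 (senescent), and without Kap they were 6610 and 7162. The genes called higher had low means, with medians of 0.112 and 0.413, while those called lower had medians of 1.68 and 0.617. Every listed gene passed the minimum of 0.1 by a margin. Rnf123, the gene nearest to it, had means of 0.0639 and 0.169, and no PT row lay below the minimum.

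**Figure D1:**
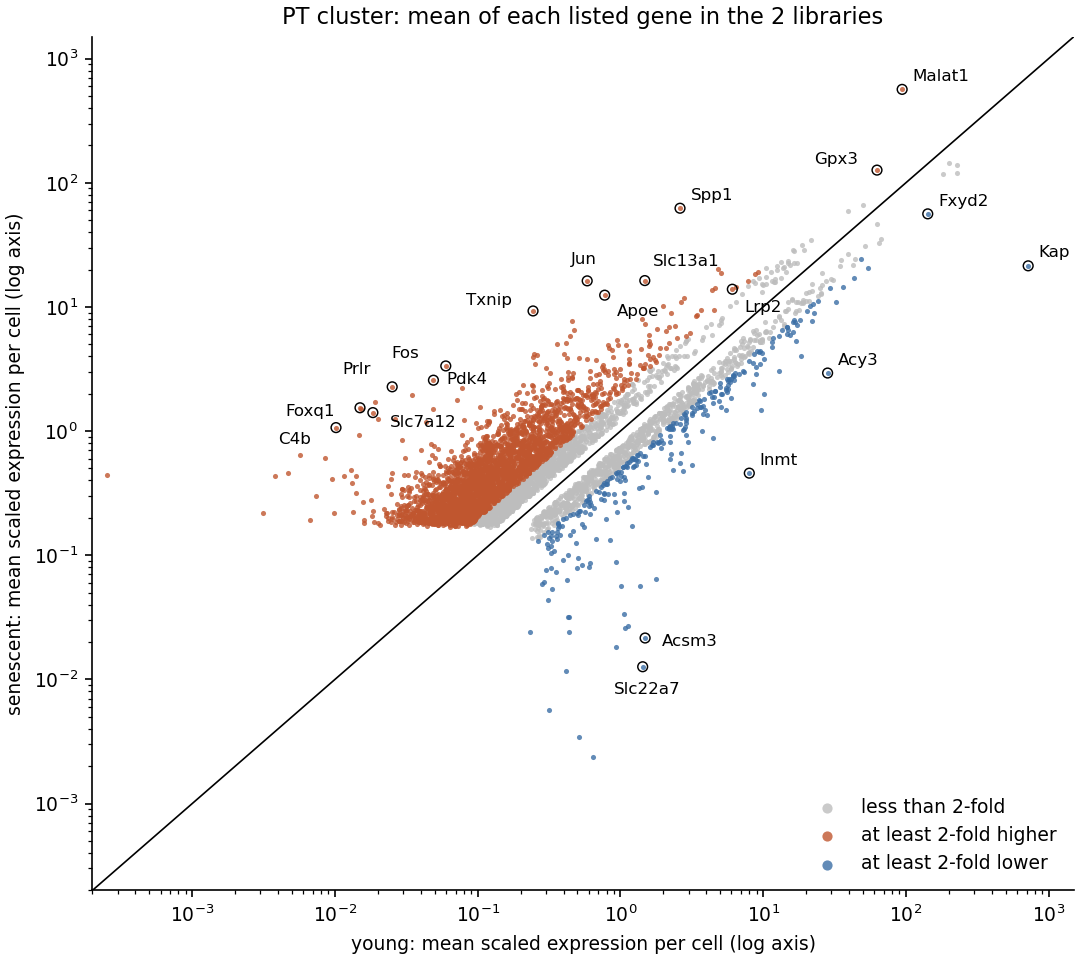
Mean scaled expression per cell of the 5037 listed PT genes in the young (x axis) and the senescent library (y axis), both on log axes, with points coloured by whether the ratio reached 2 and the line marking equal means. Most points above the line have low means, and the empty band along the line holds genes that the table does not list; Kap is the point farthest to the right, with means of 719 and 21.4.

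The direction of the difference went with gene span and with level. When the 4990 genes matched to RefSeq were ordered by the length of the gene on the genome and divided into 5 groups of 998, 47.5% were higher in the senescent library among the shortest genes (0.32 to 8.55 kb). The share was 95.7% among the longest (76.3 to 2271 kb). The median log2 ratio was -0.40 in the shortest group and 1.92 in the longest. Divided instead by mean level, 99.5% of the genes in the lowest of 5 groups and 44.5% in the highest were higher in the senescent library. The lowest level that let a gene into the table differed by direction. It was a senescent mean of 0.169 for genes higher in the senescent library and a young mean of 0.232 for genes lower in it. Directions among the lowest genes are therefore in part set by what the table lists. Gene lists differ in span and in level, and the part of either in the list results was not tested. The median span is given below for some lists only. It also fell within the shortest group for heat shock (8.1 kb) and for cell-cycle arrest and p53 targets (7.0 kb). The same held for MHC and antigen processing (6.2 kb) and interferon response (6.1 kb).

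**Figure D2:**
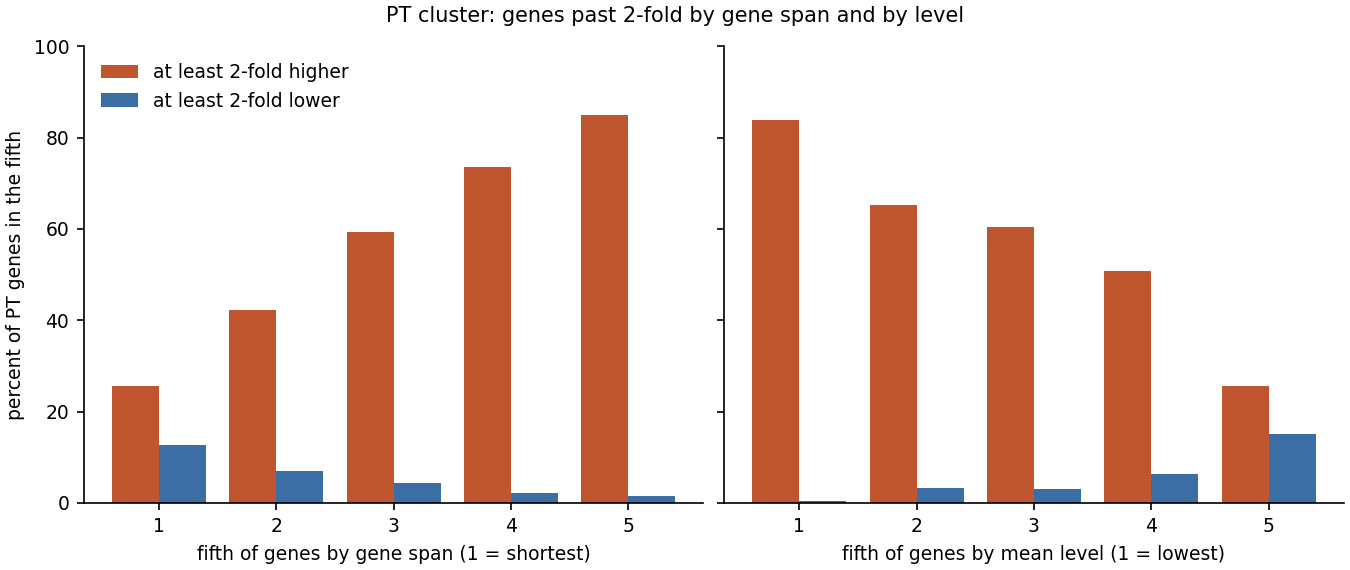
Percent of PT genes at least 2-fold higher or lower in the senescent library, with the genes divided into 5 equal groups by gene span (left) or by mean over both libraries (right). The share called higher runs from 25.7% in the shortest to 84.9% in the longest genes, and from 83.8% at the lowest to 25.6% at the highest level.

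The label was checked first against 7 marker genes of the proximal tubule, which are all listed for PT. Kap, the kidney androgen-regulated protein of proximal tubule cells, had means of 719 and 21.4, and was 33.6-fold lower in the senescent library. Kap was also lower there in every other cluster, from 16.0-fold in the cluster labelled Neutro to 401-fold in B. Miox, which starts the breakdown of inositol, had means of 54.5 and 20.4. Slc34a1, the apical sodium-phosphate cotransporter, had means of 25.7 and 18.7. These 3 markers were lower in the senescent library, and the remaining 4 were higher. Lrp2 (megalin), the large endocytic receptor of the brush border, had means of 6.08 and 13.9. Pck1, the rate-limiting enzyme of gluconeogenesis, had means of 4.38 and 13.8. Slc13a1, the apical sodium-sulfate cotransporter, had means of 1.48 and 16.3, an 11-fold difference. Slc5a12, a sodium-coupled lactate transporter, had means of 0.380 and 1.56. Over a longer list of 20 proximal tubule markers, 16 were measured, of which 5 were called higher and 4 lower.

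These markers set PT apart from the clusters labelled Marco, T and B in the senescent library but not in the young library. In the senescent library those 3 clusters had Lrp2, Slc34a1, Kap, Miox, Pck1 and Slc13a1 at 5.4% to 13.2% of their PT means. The cluster labelled endo was nearer to PT there, with Slc13a1 at 92.0%, Slc34a1 at 61.5% and Kap at 20.1% of their PT means. Lrp2, Miox, Pck1 and Slc5a12 are not listed for endo. In the young library Kap stood at 89.2% of its PT mean in Marco, 70.2% in T and 69.4% in B. Lrp2 stood at 200% in Marco, 122% in T and 102% in B. Pck1 was at 137% of PT in Marco and 121% in B, and Slc13a1 at 161% and 185%. Young PT means thus include RNAs that the other clusters of the library held at a like or higher level. Leaving out every gene with a higher young mean in another cluster left 1920 genes, of which 869 were called higher and 205 lower.

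**Figure D3:**
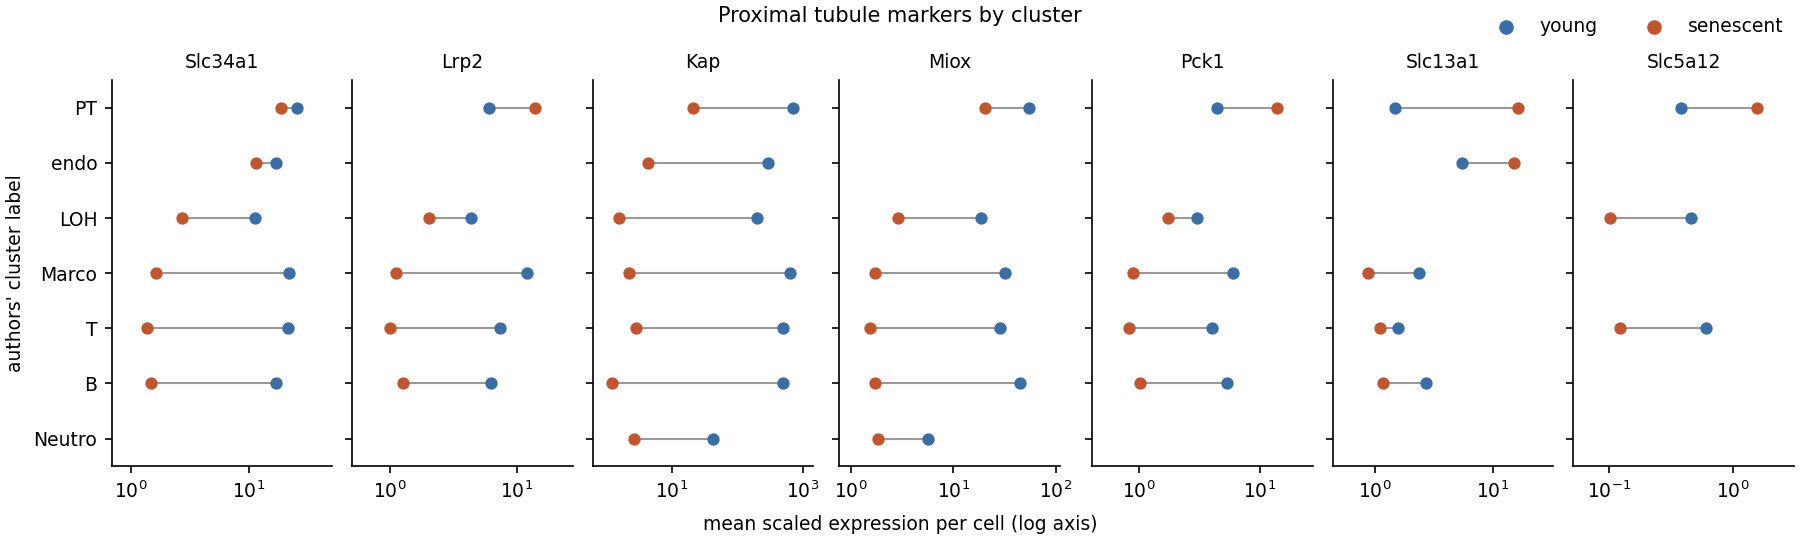
Mean scaled expression per cell (log axes) of the 7 markers in each of the authors' 7 clusters, for the young (blue) and senescent (red) library; a gene not listed for a cluster has no points. In the senescent library the PT points of Lrp2, Pck1 and Slc34a1 (13.9, 13.8 and 18.7) lie far to the right of those of Marco, T and B, while in the young library they lie among or near them.

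Markers of other cells were looked up in the PT rows, where a marker at a like level in both libraries would not appear. None of the markers of collecting duct principal cells, podocytes, endothelium, fibroblasts and mural cells, or T and NK cells was in the PT rows. Of 9 markers of the thick ascending limb, the ascending part of the loop of Henle, 3 were measured, and all 3 were lower in the senescent library. Umod (uromodulin) had means of 3.20 and 0.535, Ppp1r1a had 1.13 and 0.0269, and Egf had 0.425 and 0.0629, with summed levels of 4.75 and 0.62. Of 7 markers of the distal convoluted and connecting tubule 2 were measured, and both were lower. Klk1 (kallikrein) had means of 1.05 and 0.0336, and Slc12a3, the thiazide-sensitive cotransporter, had 0.341 and 0.108. Atp6v1g3, a proton pump subunit of intercalated cells, had means of 0.510 and 0.00342. Among 6 erythroid markers, the 3 measured globins were lower, with summed levels of 6.86 and 3.28. Among immune markers the direction was mostly the other, as it was for 78.4% of all PT genes. Of 13 macrophage markers 4 were measured, with summed levels of 4.03 and 16.4, of which Apoe gave 0.776 and 12.4. Tyrobp had 0.353 and 0.219, and Lyz2 had 0.508 and 0.372. Igkc, the immunoglobulin light chain, had 0.501 and 1.59, and the neutrophil genes S100a8 and S100a9 had 0.316 and 0.928, and 0.313 and 1.13. G0s2, also in the neutrophil list, had 2.26 and 3.24, below the 2-fold mark.

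Segment markers split. Of 12 markers of S1, the first segment, 10 were measured, of which 8 were higher in the senescent library. By the 2-fold mark 4 were called higher and 0 lower, with a median log2 ratio of 0.80. Of all PT genes 78.4% were higher and 57.2% called higher, with a median of 1.22. Slc4a4, the basolateral sodium-bicarbonate cotransporter, had means of 2.78 and 11.8, a 4.23-fold difference. Slc5a2 (SGLT2), which takes up most of the filtered glucose, had means of 1.13 and 0.744. For S2, 5 of 7 markers were measured, with 2 called higher and 1 lower. Cyp4b1, a cytochrome P450 of this stretch, had means of 13 and 3.05, while Slc22a8 (OAT3), a basolateral organic anion transporter, had 0.780 and 3.0. Cyp4b1 is also in the list of male-biased genes given below. The remaining 4 measured S2 markers had 2 called higher and 0 lower, with a median of 0.24, against -0.56 for all 5.

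Of 18 markers of S3, the straight last segment, 15 were measured, of which 4 were called higher and 7 lower, with a median log2 ratio of -0.82. Slc22a7 (OAT2), an organic anion transporter, had means of 1.43 and 0.0126 and was 113-fold lower. Acsm3, a medium-chain acyl-CoA synthetase, had means of 1.49 and 0.0215, a 69.1-fold difference. Acy3, an aminoacylase, had means of 28.3 and 2.94. In the other direction, Slc7a12, an amino acid transporter of female kidney, had means of 0.0184 and 1.41 and was 76.4-fold higher. Slc6a18, an apical amino acid transporter, had means of 0.995 and 3.17. Of the 15 measured S3 markers 7 are also in the lists of sex-biased genes given below. Of the remaining 8, 3 were called higher and 3 lower, with a median of -0.13. No S1 marker is in a sex-biased list.

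Among genes of apical solute uptake, 20 of 27 were measured, of which 9 were called higher and 1 lower. The median log2 ratio was 0.80 and the median span 33.5 kb. Both the share called higher and the median were below those of all PT genes (57.2% and 1.22). Slc23a1, which takes up vitamin C, had means of 0.444 and 2.05. Slc16a9, a carnitine transporter, had means of 0.294 and 1.22. Slc9a3 (NHE3), the sodium-proton exchanger that carries much of the sodium uptake, had means of 0.163 and 0.432. All 3 were over 2-fold higher in the senescent library, with ratios of 4.62, 4.15 and 2.66. The amino acid transporters Slc6a19 and Slc7a9 and the water channel Aqp1 differed less, with ratios of 1.46, 1.70 and 1.77. Slc5a10 (SGLT5), a sugar transporter, was the member called lower, with means of 1.06 and 0.316.

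On the basolateral side, where solutes leave towards the blood, 14 of 20 genes were measured, of which 13 were higher. By the 2-fold mark 6 were called higher and 1 lower, with a median of 0.95. This share called higher and this median, too, were below the 57.2% and 1.22 of all PT genes. Slc6a6, the taurine transporter, had means of 0.822 and 4.90. Kcnj15, a potassium channel, had means of 1.61 and 5.04, and Slc2a2 (GLUT2), the glucose exit transporter, had 0.421 and 1.14. The 2 listed parts of the sodium pump went opposite ways. Atp1b1, its beta subunit, had means of 4.55 and 9.45, while Fxyd2, its small gamma subunit, had 142 and 56.2 and was 2.53-fold lower.

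Transporters of organic anions and cations showed the widest range of ratios among the transport lists. Of 25 genes 17 were measured, 6 called higher and 4 lower, with a median of 0.56. Slco1a1, an organic anion transporter of the apical membrane, had means of 1.07 and 0.0258 and was 41.5-fold lower. Slc22a6 (OAT1), the main basolateral entry of organic anions, had means of 5.26 and 3.53, below the 2-fold mark. Slc22a29, of the same family, had means of 0.0247 and 0.412. The ATP-driven exporters of the apical membrane were higher in the senescent library. Abcc4 had means of 0.0326 and 0.355, Abcc2 had 0.674 and 3.72, and Abcg2 had 2.44 and 4.52.

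Receptor-mediated endocytosis had 16 of 24 genes measured, of which 10 were called higher and 1 lower. Their median of 1.23 was that of all PT genes within 0.01, and their median span was 54.4 kb. Cubn (cubilin), the partner of megalin in protein uptake, had means of 1.18 and 2.95. Dab2, the adaptor of megalin, had means of 1.57 and 4.86, and Cltc, the clathrin heavy chain, had 0.502 and 2.13. Amn (amnionless), which carries cubilin to the surface, had means of 1.94 and 1.35. Lrpap1, the chaperone of megalin, had means of 5.57 and 2.64 and was the member called lower. The receptors and their chaperones thus differed in direction.

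In the brush border list 18 of 26 genes were measured, 8 called higher and 2 lower, with a median of 0.88. All PT genes had 57.2% called higher and a median of 1.22, both above those of the list. Eps8, an actin-bundling protein of microvilli, had means of 0.516 and 1.81, and Alpl, an alkaline phosphatase, had 0.546 and 1.60. Mep1b, a subunit of the protease meprin, had means of 0.939 and 0.222. Ggt1, which splits glutathione, had means of 6.33 and 3.62. Ace, which makes angiotensin II, had means of 0.365 and 0.165.

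**Figure D4:**
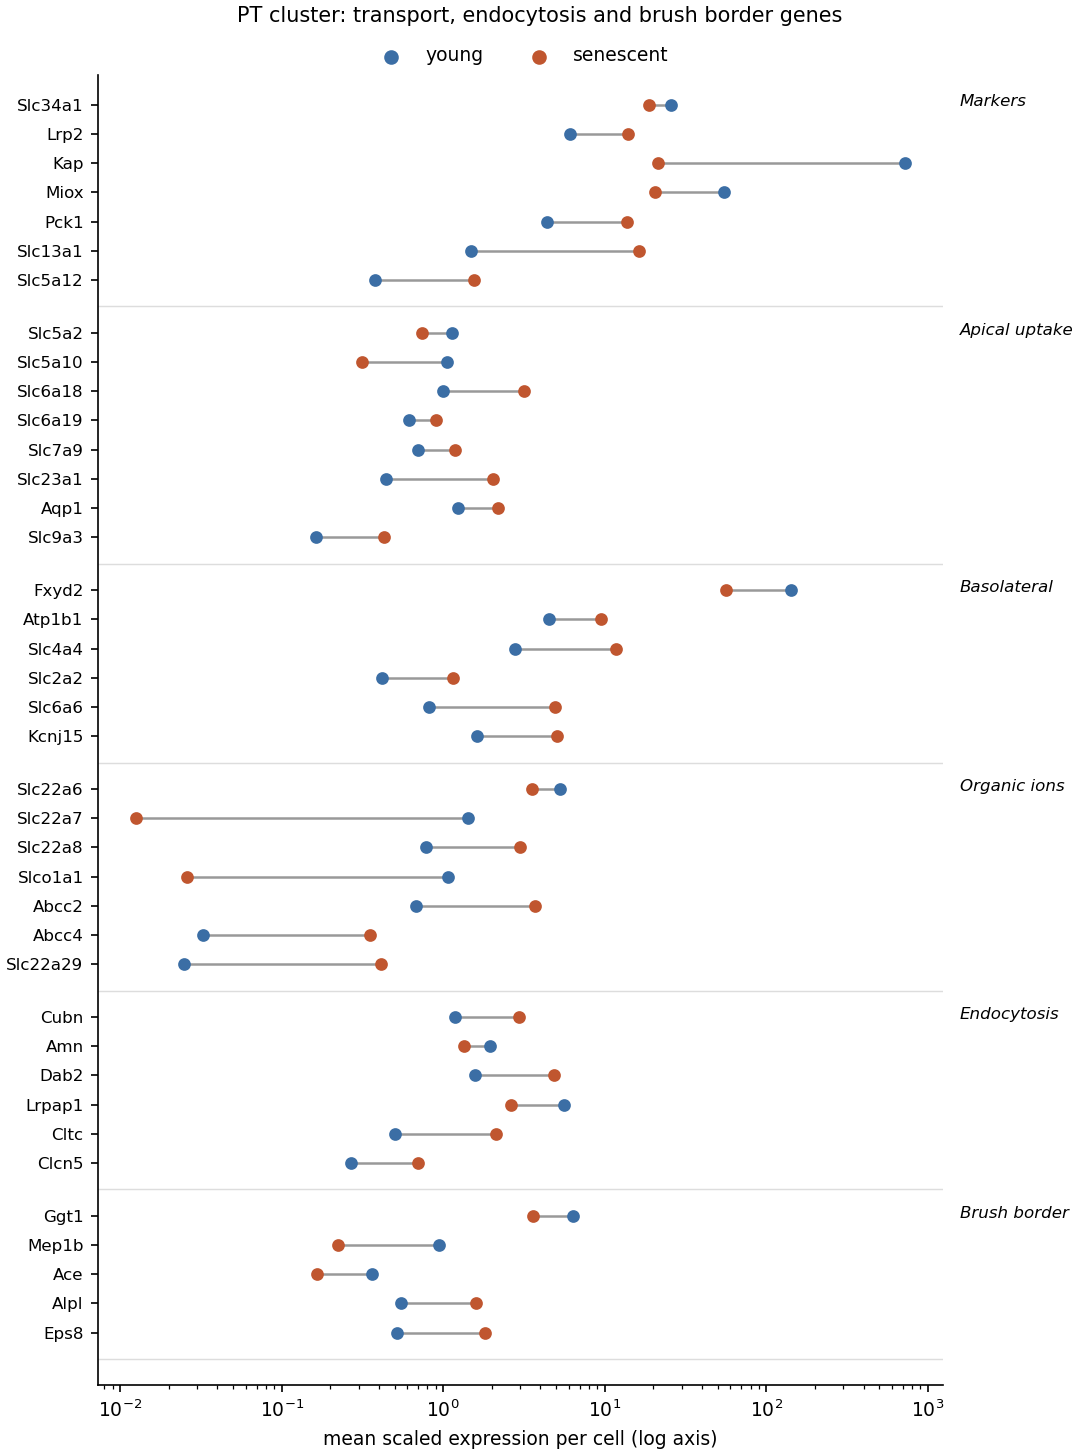
Mean scaled expression per cell (log axis) of transport, endocytosis and brush border genes in PT, grouped by role, with a line joining the young (blue) and senescent (red) library; the genes were chosen to show each role. Slc13a1 and Slc6a6 lie to the right in the senescent library, at 16.3 and 4.90, while Kap, Slc22a7 and Slco1a1 lie far to the left.

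Genes of glucose and ammonia production also split by step. Of 24 genes 15 were measured, 5 called higher and 3 lower, with a median of -0.62 and a median span of 16.6 kb. Besides Pck1, the genes called higher included Fbp2, a fructose-bisphosphatase, with means of 0.165 and 0.742. Glud1, which releases ammonia from glutamate, had 1.06 and 2.61, and Pcx, which makes oxaloacetate, had 0.730 and 1.51. Mdh1 and Ldhb, cytosolic dehydrogenases, were called lower, with means of 13 and 5.84, and 14.8 and 6.94. Only 3 of 12 glycolysis genes were listed, and all 3 were lower. Gapdh had means of 25.3 and 12.8, and Pkm had 0.396 and 0.0909.

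Fatty acid oxidation and peroxisome genes were measured for 38 of 54, with 16 called higher, 4 lower and a median of 0.82. Both the share called higher and the median were below those of all PT genes (57.2% and 1.22). The genes called higher included the regulators. Ppara, the nuclear receptor that switches on fatty acid oxidation, had means of 0.0927 and 0.505, and its coactivator Ppargc1a had 0.137 and 0.945. Pdk4, which holds back glucose oxidation, had means of 0.0490 and 2.57 and was 52.5-fold higher. Cyp4a14, an omega-hydroxylase and a textbook target of Ppara, had means of 0.360 and 5.07. Acsl1, which activates long-chain fatty acids, had 0.302 and 3.21, and Cpt1a, the gate of mitochondrial entry, had 0.379 and 1.06. The 4 members called lower were Acsm3, Acsm1, Fabp3 and Acads. Acads, the short-chain dehydrogenase, had means of 2.89 and 0.935, Fabp3, a cytosolic fatty acid carrier, had 1.41 and 0.358, and Acsm1, an acyl-CoA synthetase like Acsm3, had 1.13 and 0.247.

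The respiratory chain was lower nearly throughout. Of 37 complex I genes 35 were measured, and all 35 had lower means in the senescent library, of which 12 were called lower and 0 higher. The median log2 ratio was -0.91 and the summed levels were 334 and 176. Ndufb2 had means of 9.45 and 3.46, and Ndufa4 had 42.7 and 21.9. For complexes II to IV and ATP synthase, 34 of 41 were measured and 33 were lower, with 9 called lower and 0 higher and a median of -0.81. Uqcrq, of complex III, had 22.6 and 8.94, Cox8a of complex IV had 52.0 and 31.2, and Atp5k of ATP synthase had 14.6 and 6.03. Sdha, the flavoprotein of complex II, was the member with a higher mean, 1.61 and 2.30. Median spans were 7.80 kb for complex I and 6.34 kb for the other complexes, within the shortest of the 5 groups by span, whose own median was -0.40.

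Transcripts of the mitochondrial genome were measured for 9 of 13 genes, and the most abundant were lower too. mt-Cytb had means of 229 and 121, mt-Nd1 had 66.5 and 35.6, and mt-Co2 had 181 and 118. In the other direction, mt-Nd6 had means of 0.350 and 1.43 and mt-Nd4l had 11.4 and 19.2, so that 6 were lower and 3 higher. Mitochondrial ribosomal proteins were measured for 60 of 78, of which 57 were lower, with 8 called lower and 0 higher, a median of -0.77 and a median span of 7.18 kb. Mrpl20 had means of 5.48 and 2.24. Citrate cycle genes split, with 2 of 12 called higher and 2 lower and a median of 0.53. Idh1, the cytosolic NADP-linked isocitrate dehydrogenase, had means of 2.18 and 5.17, and Fh1 (fumarase) had 1.43 and 0.635.

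Cytosolic ribosomal proteins went the other way from those of mitochondria, although both lists fall among the shortest genes. Of 79 genes 39 were measured, and all 39 were higher in the senescent library, though only 4 passed 2-fold. Their median was 0.65 and their median span 2.77 kb. Rpl12 had means of 3.64 and 9.48, Rps12 had 8.73 and 18.4, and Rps29 had 18.6 and 31.5. These genes have processed pseudogenes in the genome, and the assignment of shared reads is not described in the labels. Relative to the median of all PT genes, 1.22, the list lay below rather than above. The same turn of direction under centring holds for 17 of the 46 lists with at least 5 measured members. Proteasome subunits were measured for 23 of 40, of which 20 were lower, with 7 called lower, 1 higher and a median of -0.91. Psmb3 had means of 3.78 and 1.37, and Psmd1, the member called higher, had 0.240 and 0.607.

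Xenobiotic metabolism held large differences in both directions, with 26 of 41 genes measured, 7 called higher, 11 lower and a median of -0.82. Inmt, an indolethylamine methyltransferase, had means of 8.0 and 0.458 and was 17.4-fold lower. The glucuronosyltransferase Ugt2b38 had 9.60 and 1.48, and the carboxylesterase Ces1f had 2.64 and 0.672. Sult1d1, a sulfotransferase, had means of 5.09 and 18.7. Aldh1a1, a retinaldehyde dehydrogenase, had 0.0140 and 0.431, and Ugt1a2 had 0.000253 and 0.440. Ugt1a2 shares its last exons with other genes of its locus and is uncertain on that account. Amino acid breakdown was more even, with 5 of 28 measured genes called higher and 3 lower. Kmo, of the tryptophan pathway, had means of 0.230 and 0.651, and Gamt, which makes creatine, had 0.734 and 0.283.

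Antioxidant genes split. Of 40 genes 31 were measured, 9 called higher and 7 lower, with a median of 0.60 and a median span of 9.74 kb. Gpx3, the secreted glutathione peroxidase that the proximal tubule releases to plasma, had means of 62.7 and 126. Nfe2l2 (Nrf2), the factor that drives antioxidant genes, had means of 0.245 and 1.23. Txnip, which binds and restrains thioredoxin, had means of 0.244 and 9.28 and was 38-fold higher. Against these, mitochondrial Sod2 had means of 10.1 and 3.84, Prdx5 had 48.9 and 24.2, and Gstp1 had 2.23 and 0.598. Hmox1, which breaks down heme, had means of 0.353 and 0.143. Among iron and copper genes 7 of 10 measured were called higher and 1 lower. Cp (ceruloplasmin) had means of 0.00849 and 0.606, and Slc40a1 (ferroportin), the iron exporter, had 0.0812 and 0.699. Mt1, a metallothionein, had 1.2 and 0.172 and was the member called lower. Fth1, the ferritin heavy chain, had 226 and 138.

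Transcription factors and coactivators of the proximal tubule were higher in the senescent library wherever they were listed. Of 39 genes 23 were measured, 19 called higher and 0 lower, with a median of 1.98. Over all PT genes 57.2% were called higher, with a median of 1.22. Their median span was 66.1 kb, and PT genes of 37.2 to 76.2 kb as a whole had a median of 1.59. Hnf4a, the master regulator of the proximal tubule program, had means of 1.21 and 2.09, below the 2-fold mark. Hnf4g, its paralog, had 0.0528 and 0.715. Maf had means of 2.00 and 10.3. Pax2 and Lhx1, factors of kidney development, had 0.0406 and 0.262, and 0.0733 and 0.453.

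Long noncoding RNAs and splicing factors showed the same direction. Malat1, an abundant nuclear long noncoding RNA, had means of 94.2 and 565, or 1.28% and 7.87% of the listed sum. In the cluster labelled LOH its means were 268 and 347. Neat1, the scaffold of paraspeckles, had 1.42 and 8.04 in PT, and Kcnq1ot1 had 0.143 and 1.48. All 15 measured of 21 listed long noncoding RNAs were higher, 11 of them called, at a median span of 4.10 kb and a median log2 ratio of 1.47. The list also holds Norad, Gas5 and several Snhg genes, and where in the cell its RNAs lay was not tested. Of 47 splicing factors and RNA helicases 46 were measured, 40 called higher and 0 lower, with a median of 1.78. All PT genes had 57.2% called higher, 5.6% called lower and a median of 1.22. Rbm25 had means of 0.250 and 1.86, Tra2a had 0.108 and 0.777, and the helicase Ddx5 had 2.26 and 8.98. U2af1 was the single member with a lower mean, 1.23 and 0.955.

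Immediate early genes, which cells switch on within minutes of a stimulus, had the highest median of the lists with at least 5 members, 3.63. Of 37 genes 23 were measured, 22 called higher and 0 lower, and their median span was 4.02 kb. The shortest of the 5 groups by span had 25.7% called higher, and all PT genes 57.2%. Fos had means of 0.0598 and 3.35 and was 56.0-fold higher. Fosb had 0.0191 and 1.71, Jun had 0.585 and 16.2, and Btg2 had 0.0349 and 1.97. The RNA-destabilising Zfp36l1 had means of 0.456 and 7.64, and the matricellular Ccn1 had 0.242 and 3.98. Fos was also higher in Marco, with means of 0.941 and 31.8, and in LOH, with 0.567 and 6.96. Heat shock genes were not part of this pattern. Of 14 measured 2 were called higher and 3 lower, and Hspa1a, the inducible HSP70, had means of 0.536 and 0.179.

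Clock genes were listed for 10 of 20, and all 10 were called higher, with a median of 2.53. All PT genes had 57.2% called higher and a median of 1.22. The median span of the clock list was 31.8 kb. PT genes of 20.2 to 37.2 kb had 59.3% called higher and a median of 1.21. Per3 had means of 0.0476 and 0.646, and Nr1d1 (Rev-erb alpha), a repressor in the clock, had 0.115 and 0.903. Dbp, an output factor, had means of 0.117 and 0.570. Clock itself, of the positive arm, had 0.101 and 0.321. Arntl (Bmal1), Per1 and Per2 are among the genes without a PT value here. Members of both arms were thus higher in the same library, as were 78.4% of all PT genes.

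Genes of cell-cycle arrest and p53 targets were measured for 19 of 31, with 16 called higher, 0 lower and a median of 2.12. All PT genes had 57.2% called higher, 5.6% called lower and a median of 1.22. Cdkn1a (p21), the cyclin-dependent kinase inhibitor that holds cells in arrest, had means of 0.0303 and 0.333, an 11-fold difference. Gdf15, a stress cytokine, had 0.476 and 6.47, and Mdm2, which degrades p53, had 0.122 and 0.531. Trp53, the gene of p53, had means of 0.122 and 0.315. Glb1, the lysosomal beta-galactosidase read by the classical senescence stain, had means of 0.601 and 0.375 and was the member with a lower mean. Cdkn2a (p16) has no PT value here. All 5 measured of 19 genes of NF-kB and its inhibitors were called higher. Nfkbiz had means of 0.0148 and 0.932, and Nfkbia had 0.113 and 0.517.

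Secretory factors that senescent cells are known to release were measured for 12 of 39, with 10 called higher and 0 lower. The shares over all PT genes were 57.2% called higher and 5.6% called lower. Spp1 (osteopontin), a secreted matrix protein of injured tubules, had means of 2.62 and 62.4 and was 23.8-fold higher. In LOH its means were 13.1 and 101. Timp3, an inhibitor of matrix proteases, had 4.81 and 20.2 in PT, and Vegfa had 0.505 and 2.12. Cxcl1, a neutrophil attractant, had means of 0.00565 and 0.644, and Icam1, an adhesion molecule, had 0.0231 and 0.220. Igfbp5 was the member with a lower mean, 0.473 and 0.342.

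In the overlapping list of tubular injury and repair, 12 of 34 genes were measured, 10 called higher, 1 lower, with a median of 3.03. Over all PT genes 57.2% were called higher and 5.6% lower, with a median of 1.22. Fgg and Fga, fibrinogen chains that injured tubules make, had means of 0.116 and 1.21, and 0.10 and 0.478. Prom1, a marker of scattered repairing tubule cells, had 0.0619 and 0.597. Clu (clusterin) was lower, with means of 0.331 and 0.0539. Havcr1 (KIM-1) and Lcn2 (NGAL) have no PT value here.

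Complement components were measured for 6 of 24, with 4 called higher and 1 lower. The shares over all PT genes were 57.2% called higher and 5.6% called lower. C3, the central component, had means of 0.0264 and 1.24, and C4b had 0.0102 and 1.07, a 105-fold difference. For Cfi, the complement factor I protease, the table lists 0.0201 and 1.24. Its senescent mean is identical to that of C3, and its log2 fold change in the authors' deposited table, 5.37, differs from the 5.94 that its means give and implies a senescent mean of 0.834. The listed senescent mean of Cfi is therefore uncertain, and the ratio is 61.8 by the first value and 41.5 by the second. No other pair of PT genes shares a senescent mean.

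MHC and antigen processing genes were measured for 11 of 27, with 6 called higher, 0 lower and a median of 1.55. The share called higher was near that of all PT genes, 57.2%, of which 5.6% were called lower. B2m, the light chain of MHC class I, had means of 0.942 and 5.38. H2-Ab1 and Cd74, class II genes of antigen-presenting cells, had 0.666 and 2.05, and 2.40 and 3.33. Interferon response genes were measured for 10 of 40, and all 10 were higher, 8 of them called. Stat3 had means of 0.0454 and 0.564 and Gbp7 had 0.0245 and 0.312. The macrophage genes Tyrobp and Lyz2, given above, were lower in the same library while Igkc and S100a9 were higher. The part of RNA from immune cells in these lists was not tested.

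Apoe, a lipid carrier protein, had PT means of 0.776 and 12.4 and was 16.0-fold higher. In Marco its means were 9.02 and 144, a ratio of 15.9, so that Marco stood at 1162% and 1155% of PT. The list of cholesterol and lipid synthesis, which includes Apoe, had 12 of 20 measured genes called higher and 0 lower. Both its median of 1.26 and its share of genes called higher were near those of all PT genes (1.22 and 57.2%). Acly, which makes acetyl-CoA for synthesis, had 0.172 and 0.861, and Abca1, the cholesterol exporter, had 0.0436 and 0.311.

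Structural genes were higher in the senescent library, near the median of all PT genes. All 15 measured of 30 junction and polarity genes were higher and 11 were called, with a median of 1.44. Cldn2, the paracellular cation pore of the proximal tubule, had means of 0.900 and 3.15, and Tjp1 (ZO-1) had 0.0290 and 0.189. All 15 measured of 33 matrix and TGF-beta genes were higher and 14 were called, with a median of 1.46. Col4a4, a basement membrane collagen, had 0.495 and 1.85, Bmp4 had 0.122 and 0.728, and Smad7, an inhibitor of TGF-beta signalling, had 0.105 and 0.766. The median spans were 71.9 and 70.7 kb, in the group by span whose own median was 1.59. Actin genes had a median of 1.21, with 13 of 20 measured called higher and 1 lower. Msn (moesin), which ties actin to the membrane, had means of 0.162 and 1.31, and Tmsb10, a thymosin, had 1.08 and 0.407.

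Hormone and nutrient signalling genes were measured for 26 of 39, with 19 called higher and 2 lower. Their median was 1.83 and their median span 73.2 kb. All PT genes had 57.2% called higher and a median of 1.22, and those of 37.2 to 76.2 kb had a median of 1.59. Prlr, the prolactin receptor, had means of 0.0252 and 2.27 and was 90.3-fold higher. Igf1r and Insr, the receptors of IGF-1 and insulin, had 0.429 and 3.0, and 0.120 and 0.796. Sgk1, a kinase that raises sodium transport, had 0.581 and 3.83. Kl (klotho), the co-receptor of FGF23 and a gene tied to ageing in mice, had means of 1.11 and 1.75, a ratio of 1.58 below the 2-fold mark. The members called lower were Egf and Ace, given above, of which Egf is also a thick ascending limb marker.

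Among genes that differ between male and female kidney, the male-biased ones were mostly lower in the senescent library. Of 20 androgen-responsive and male-biased genes 17 were measured, 10 called lower and 1 higher. Their median of -1.09 was the lowest of the lists with at least 5 members. All PT genes had 5.6% called lower, 57.2% called higher and a median of 1.22. Besides Kap, Acsm3 and Slco1a1, Cndp2, a dipeptidase, had means of 18.3 and 4.04, and Cyp7b1, a steroid hydroxylase, had 0.445 and 0.147. Akr1c21, a hydroxysteroid dehydrogenase, had 35 and 23.9. Cyp2e1 was among the 4 members with higher means, 3.26 and 4.24. Of 14 female-biased genes 8 were measured, 4 called higher and 3 lower. Prlr, Slc7a12 and Cyp4a14 were higher, while Slc22a7 and Ces1f were lower. The female-biased list thus had no common direction.

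Y-linked genes were listed for both libraries. Ddx3y had PT means of 0.138 and 0.771, Uty had 0.0605 and 0.317, Kdm5d had 0.0294 and 0.217, and Eif2s3y had 0.334 and 0.521. Xist, which silences the X chromosome in female cells, has no PT value here. Transcripts of the Y chromosome were thus present in both libraries. The sex of the mice was not given, and its part in the values of the sex-biased genes was not tested.

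**Figure D5:**
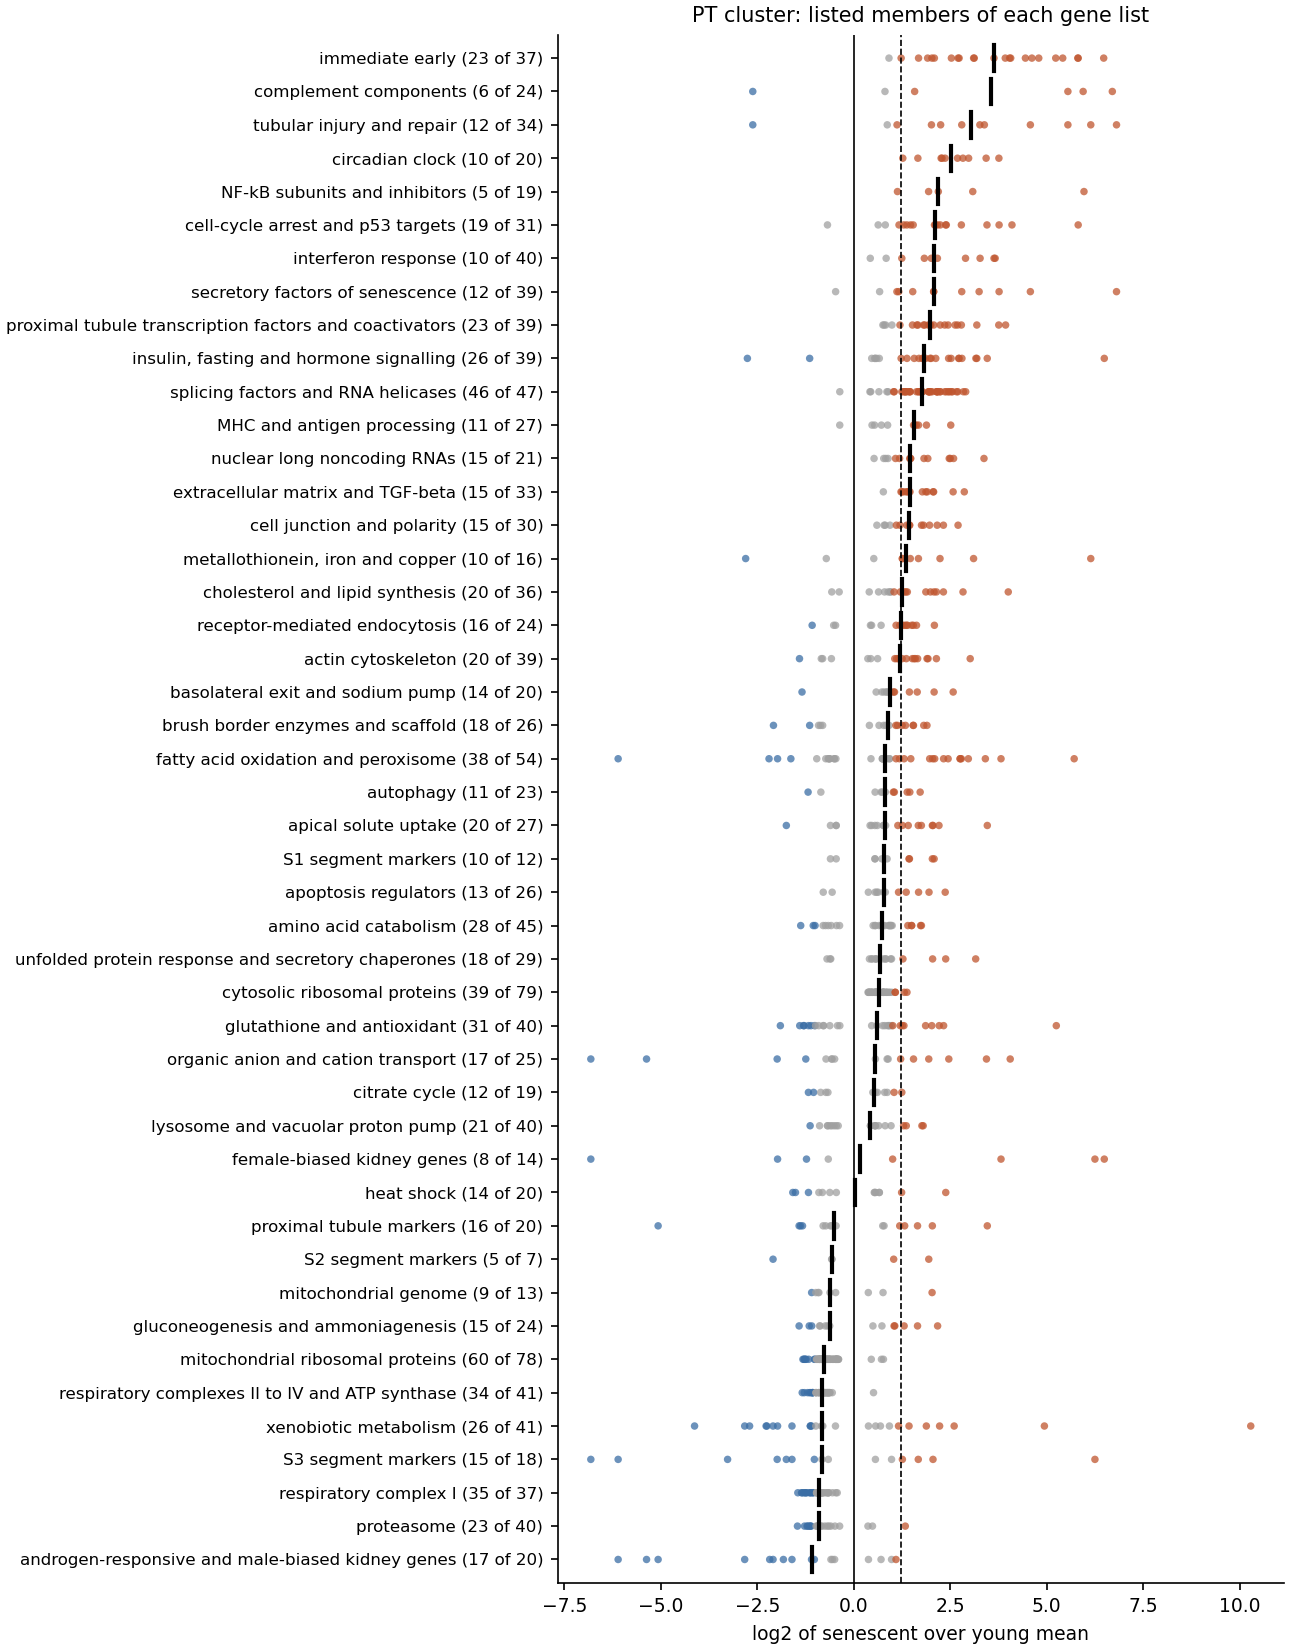
Log2 ratio of senescent to young (x axis) for every measured member of the lists with at least 5 measured members, coloured by whether the ratio reached 2 (red higher, blue lower), with a black bar at each list's median; numbers give measured of listed genes, the solid line marks 0 and the dashed line the median of all PT genes, 1.22. Immediate early genes lie farthest to the right, with a median of 3.63, while complex I genes (-0.91) and male-biased genes (-1.09) lie to the left of 0.

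The genes with the largest ratios included several outside the lists. Among genes whose higher mean was at least 1, Foxq1, a forkhead transcription factor at chr13:31558170-31560976 (RefSeq genes on GRCm38.p6), had means of 0.0150 and 1.54 and was 103-fold higher. Gpc3 (glypican 3), a heparan sulfate proteoglycan at chrX:52272426-52613974, had means of 0.0151 and 1.51 and was 100-fold higher. In the lower direction, Wfdc15b, a small secreted protease inhibitor at chr2:164214454-164221663, had 1.79 and 0.0641. Defb1, a beta-defensin, had 1.38 and 0.0562, and Ckb, the brain-type creatine kinase, had 1.01 and 0.0564. Of the 12 genes with the largest ratios downwards, Ppp1r1a and Klk1 are in the lists of other tubule segments. Ratios over such small means rest on few molecules in the lower library, and the depth behind them is unknown.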

How the data were processed

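The deposited table holds, for each library, a signal averaged by the authors over a cluster's cells. Its scale factor is not given in the sources used here. Per the submitters' processing notes, Cell Ranger 2.1.1 and the mouse build mm10 were used. How cells were filtered and clustered, how doublets and free RNA were treated, and with which test cells were compared, is likewise not given. The log2 fold changes that the authors deposited equal the log2 of the ratio of means after adding 0.0001 to each, in all PT rows but Cfi. Deposited p-values run up to 0.05, and the adjusted values passed 0.05 for 5035 of 5037 PT genes. They measure spread between cells, so they were not used for calls.

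Computed here were ratios of the deposited means, with the same 0.0001 added on the log2 scale, the genes past a ratio of 2, and counts and medians of 59 gene lists, with a median printed for at least 5 members. Lists, members and alternatives were chosen with earlier results of these data known, and support nothing independently. Named genes were the 7 markers given with the cluster, the 10 highest means in each library, the 12 largest ratios in each direction at a mean of at least 1, and, per list, the 4 largest ratios each way and the 2 highest means. Others, such as Slc6a19, Slc7a9, Aqp1, Slc9a3, Trp53, Dbp, Clock and Insr, were added for their roles after their values were seen, and some genes that the rule names are not reported here. Symbols matched RefSeq genes on GRCm38.p6, the same assembly as mm10, for 4990 genes (99.1%). The calling step was tested on simulated data. Alternatives were other ratios, minimum means, pseudocounts and scalings. Software was Python 3.11.15 with pandas 2.3.3, numpy 2.4.6, matplotlib 3.10.9 and scipy 1.17.1. No counting interval was computed for the means, as the depth is unknown.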

Additional observations from a re-analysis of the deposited data

Results flagged for a closer look

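Some genes had opposite directions in PT and in another cluster of the same libraries. These differences were not tested, since each cluster has 1 library per group, and no cause was tested. The values are the log2 ratio of senescent over young in PT minus that in the other cluster. Lrp2 was higher in the senescent library in PT and lower in the others, with differences of 3.49 from B, 2.29 from LOH, 4.64 from Marco and 4.06 from T. Pck1 did likewise, with 4.05 from B, 2.45 from LOH, 4.41 from Marco and 3.94 from T. For Slc13a1 the differences were 4.67 from B, 4.89 from Marco and 3.97 from T, and for Slc5a12 they were 4.21 from LOH and 4.36 from T. Gpx3 differed by 2.15 from B, 2.20 from Marco and 2.23 from T. Neat1 differed by 3.59 from T. Umod, the thick ascending limb marker, was lower in PT and higher in LOH, a difference of -4.22. Other clusters shared the PT direction. In endo, Slc13a1 (5.45 and 15.0), Gpx3 (52.3 and 102) and Neat1 (3.69 and 9.43) were also higher in the senescent library. Gpx3 was also higher in Neutro, and Neat1 in LOH and Marco. Umod was also lower in B, Marco and T.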

How the results depend on the processing

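The log2 ratios of the 328 named genes were taken again under other pseudocounts and under scaling by the sum of means, with and without Kap. Counted once per gene and setting, and so not as numbers of genes, 347 log2 ratios moved, 965 did not and 0 turned direction. Under these settings and other minimum means 4 list medians turned. Centring, which was not run gene by gene, would turn each gene with a ratio between 1 and 2.34, besides the 17 lists given above. The count called higher, 2881, was 1155 at a ratio of 4, 1162 at a minimum mean of 0.5, 470 at a minimum of 1, 822 after centring and 869 without genes whose young mean was higher in another cluster. The count called lower, 282, was 771 at a ratio of 1.5, 51 at a ratio of 4, 185 at a minimum of 1 and 1089 after centring. The share higher, 78.4%, was 65.1% at a minimum of 0.5, 52.6% at a minimum of 1, 61.8% without the genes higher in another cluster and, by construction, 50.0% after centring. At a minimum mean of 1 the medians were -0.57 for organic ion transport, -0.030 for the citrate cycle and -0.017 for amino acid catabolism, and that of heat shock was -0.076 after division by the sum without Kap. All but the first lay within 0.1 of 0. Fewer genes enter at a higher minimum, and those with low means were mostly higher in the senescent library. No paired analysis was possible because each group has 1 library, and no replicate could be left out.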

Other observations

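Groups of genes by the functional annotation in the deposited table, chosen here after their values were seen, are given next for PT. Over all PT genes 57.2% were called higher and 5.6% lower, with a median of 1.22. The part of gene span in these groups was not tested. Of 380 genes annotated to regulation of transcription by RNA polymerase II, 360 were higher in the senescent library, 308 called higher and 4 lower, with a median log2 ratio of 1.96. Of 12 genes of histone H3-K4 methylation, 11 were called higher. Kmt2a, a methyltransferase of this mark, had means of 0.10 and 1.05, and Ash1l, a histone methyltransferase, had 0.177 and 1.63. Of 19 genes of BMP signalling, all were higher and 16 were called. Id1, a classical target of the pathway, had means of 0.0295 and 0.840, and the receptor Bmpr2 had 0.0659 and 0.350. Of 17 genes of ureteric bud branching 16 were called higher, Myc among them, with means of 0.0129 and 0.490. Of 13 genes that restrain TOR signalling 10 were called higher and 0 lower, and Deptor, an inhibitor bound to mTOR, had 0.116 and 0.680.

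Some groups had medians below 0. Their counts stand beside the 5.6% of all PT genes called lower and the 57.2% called higher. Of 22 genes of pyruvate metabolism 10 were called lower and 3 higher, with a median of -0.87. Akr1a1, an aldehyde reductase, had means of 22.2 and 7.76, and Grhpr, which reduces glyoxylate, had 4.45 and 1.68. Of 16 genes of retinol metabolism 7 were called lower and 4 higher. Ttr (transthyretin), a carrier of retinol-binding protein, had means of 5.49 and 1.47, while Rdh16f2, a retinol dehydrogenase, had 1.58 and 5.34. Of 798 genes annotated to the mitochondrion 394 were higher and 404 lower, with 233 called higher and 103 called lower, and their median was -0.37. Of 12 genes of protein import into the mitochondrial matrix 10 were lower, though 0 were called in either direction.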
